A study of Mus musculus with 12 samples.

Results

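The genes described here are 29 genes of fatty acid oxidation and ketone body formation, which together let the colon's lining use butyrate as fuel. They were taken by symbol from the table of read counts, in which all 29 of them were found among its 18514 genes. All 29 also had enough reads to be tested, as did 15484 of the genes in the table. The list covers the carnitine shuttle, the enzymes of β-oxidation in mitochondria and peroxisomes, the electron transfer flavoprotein, the enzymes that make and use ketone bodies, a pair of regulators, 3 target genes of the PPAR receptors and the monocarboxylate transporter Slc16a1.

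RNA of colorectal tissue was sequenced from 12 male C57BL/6 mice bought at 4 weeks of age, with 1 library per mouse and 3 mice in each of 4 groups. Mice of the Model and Model_Swim groups were injected with the carcinogen azoxymethane (AOM, 10 mg/kg) and drank 2% dextran sulfate sodium (DSS, which injures the colon lining) in 3 cycles, a standard way to induce colitis-associated cancer. Mice of the Ctrl and Ctrl_Swim groups were given neither. Daily swimming of up to 90 min was given to the Ctrl_Swim and Model_Swim mice, and the Model_Swim labels call it a pretreatment. By the paper, training began before the experiment and went on until its end. Mice that did not swim were placed in shallow water. The labels number the Ctrl_Swim mice 2 to 4 and the mice of the other groups 1 to 3. Values of single mice are given in that order below. A tissue piece holds many cell types, so that in these data fewer cells of a type and less RNA per cell cannot be told apart.

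Butyrate, a short-chain fatty acid made by gut bacteria, enters colonocytes through transporters such as MCT1 (Slc16a1) and is broken down in their mitochondria. Longer fatty acids must first be joined to carnitine by CPT1 and carried across the inner membrane. Both kinds of fuel are then broken down by β-oxidation to acetyl-CoA, the longer ones in repeated rounds. The electrons go to the respiratory chain, and acetyl-CoA enters the citric acid cycle or is turned into ketone bodies, for which the colon is a known site outside the liver. PPARα (Ppara), a receptor that senses fatty acids, and the coactivator PGC-1α (Ppargc1a) are known to raise the transcription of many of these genes.

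Levels are given as CPM, the reads of a gene scaled to the library's total after TMM normalization, and differences as log2 fold changes ± SE from edgeR. A gene is said to have risen or fallen where the p-value adjusted over all 15484 genes was under 0.05. Total counts lay between 17256953 and 19451055 per library. Model 3 stood apart from the other mice of its group for these genes. Model 3 was the highest of the 3 Model mice in 25 of the 29 genes, while over all genes tested it was the highest in 38.4%. Relative to the Ctrl mean, the median log2 difference of the 29 genes was -0.68 in Model 1, -0.62 in Model 2 and -0.26 in Model 3. It was -0.27, -0.29 and -0.25 in the Model_Swim mice and 0.21, -0.012 and -0.080 in the Ctrl_Swim mice. Model 3 thus lay at the level of the Model_Swim mice. Among the Ctrl_Swim mice, Ctrl_Swim 2 was above all Ctrl mice in 25 of the 29 genes. Model 1 and Model 3 also held reads of pancreatic acinar genes, with a summed level of 51814 and 25257 CPM over 16 marker genes, against 365 CPM in Model 2, 388 to 465 CPM in Ctrl and 180 to 222 CPM in Model_Swim.

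**Figure D1:**
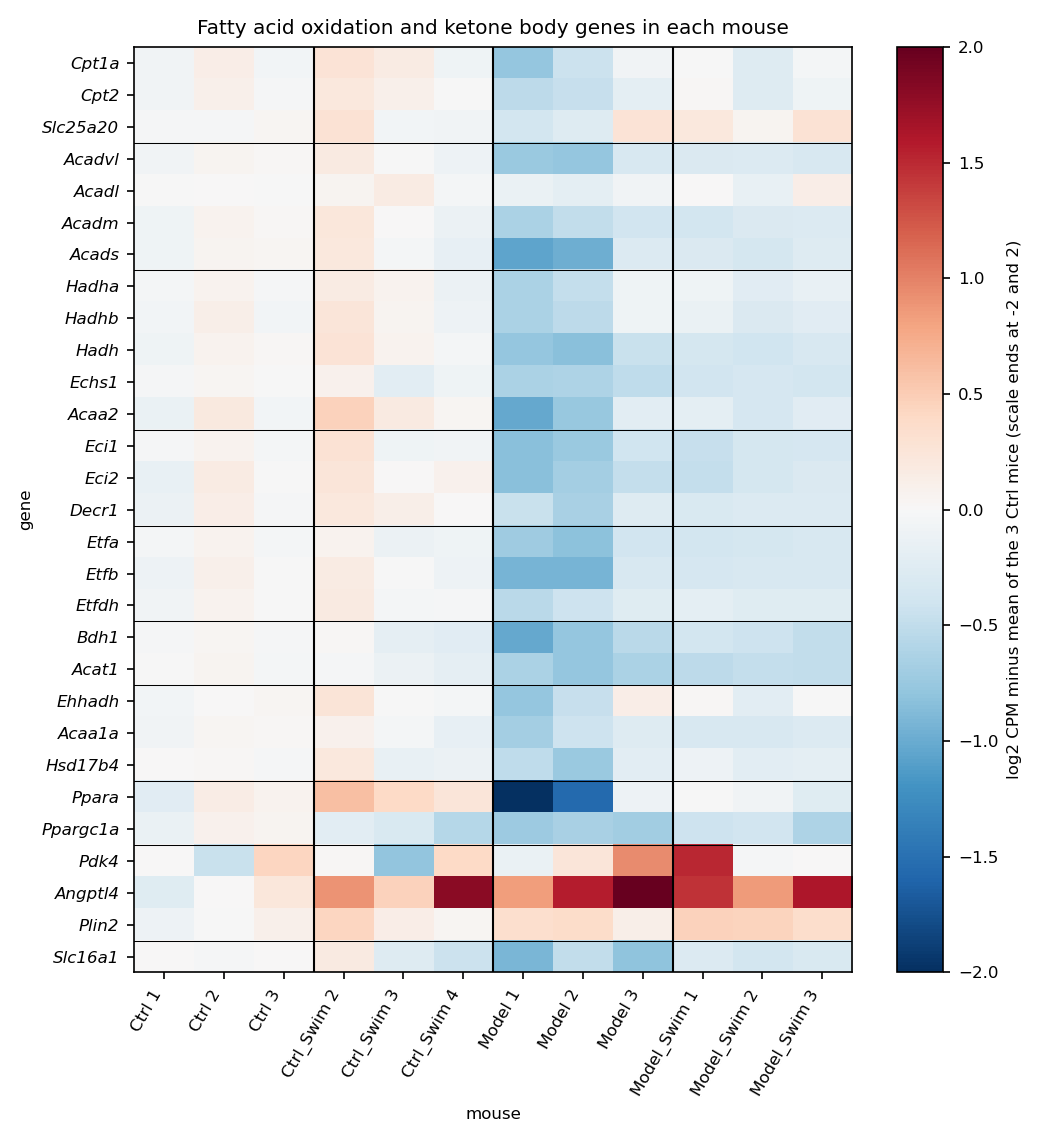
Each row is 1 of the 29 genes and each column 1 of the 12 mice, and the colour gives the log2 CPM minus the mean log2 CPM of the 3 Ctrl mice, with blue for lower and red for higher. The columns of Model 1 and Model 2 are the darkest blue (medians -0.68 and -0.62), while Model 3 (-0.26) resembles the 3 Model_Swim columns (-0.25 to -0.29).

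Between Model and Ctrl, fatty acid oxidation genes were lower as a group, with 21 of the 29 falling, 1 rising and 7 not passing the test. Over all genes tested, 16.2% fell and 16.5% rose in this comparison. The median log2 fold change was -0.51 for the 29 genes and 0.01 for all genes tested. Most changes were moderate, with those of the 21 genes that fell between -0.39 and -0.77. Under the study's stricter cutoffs, which also ask for a fold change over 2 or under 0.5, 1 of the 29 passed (Angptl4, higher), while 6.21% of all genes passed as higher and 1.22% as lower. No overlap, with every Model mouse under every Ctrl mouse, was seen in 23 of the 29 genes and in 23.2% of all genes tested. Every Model mouse was also under every mouse of the other groups in 9 of the 29, against 4.62% of all genes.

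Where the genes lie is shown here for a pair that share their upstream region, because their products form a single enzyme. Hadha and Hadhb encode the α and β subunits of the mitochondrial trifunctional protein, which carries out the last 3 steps of β-oxidation on long chains. In the RefSeq annotation of GRCm38.p6 they are read away from each other on chromosome 5, Hadha on the minus strand from 30154980 and Hadhb on the plus strand from 30155253, with 272 bases between the starts. The 250 bases before the Hadhb start, chr5:30155003-30155252 on the plus strand, lie within this gap.
Hadha-Hadhb gap: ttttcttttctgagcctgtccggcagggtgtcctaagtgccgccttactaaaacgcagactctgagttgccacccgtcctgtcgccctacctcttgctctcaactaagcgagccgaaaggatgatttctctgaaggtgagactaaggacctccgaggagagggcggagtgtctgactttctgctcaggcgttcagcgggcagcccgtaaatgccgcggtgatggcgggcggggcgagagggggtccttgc
Hadha fell by 0.39 and Hadhb fell by 0.40 on the log2 scale between Model and Ctrl. Of the 50-base stretches of the Hadhb transcript, 62.4% also occur in the gene model Gm13910, so that the level of Hadhb depends on how such reads were counted.

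Promoter windows (250 bases before to 50 after the start, RefSeq, GRCm38.p6) were available for 24 of the 29 genes. They were searched on both strands for 3 motifs of nuclear receptors. The PPAR element DR1 (AGGNCANAGGNCA) was found in 0 of the 24 genes and in 0.381% of the 32851 windows in the table. The ERR element (TNAAGGTCA) was likewise found in 0 of the 24 and in 1.28% of all windows. The single core motif AGGTCA, which is part of the ERR element and of some DR1 elements, was present in 5 of the 24 genes (20.8%) and in 16.3% of all windows. The stretches around these 5 matches are printed because they show the letters that a receptor of this family is known to bind, with the core motif in capitals, each read in the direction of its gene. They were chosen after the motif search had been seen. Counted from the transcript start that defines each window, the match starts 249 bases upstream in Acadm, 87 in Acadvl, 94 in Cpt1a, 83 in Echs1 and 218 in Plin2. For Cpt1a and Plin2 this start lies 975 and 158 bases inside the gene's annotated span. In Acadm, Cpt1a and Plin2 the match lies on the opposite strand and is therefore read as TGACCT.
Acadm, chr3:153944867-153944893, minus strand: gTGACCTtcgggctccggtgacactgg
Acadvl, chr11:70015490-70015535, minus strand: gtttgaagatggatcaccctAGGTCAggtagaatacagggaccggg
Cpt1a, chr19:3323187-3323232, plus strand: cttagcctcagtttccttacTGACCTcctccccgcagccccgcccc
Echs1, chr7:140116479-140116524, minus strand: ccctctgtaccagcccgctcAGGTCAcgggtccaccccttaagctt
Plin2, chr4:86670252-86670297, minus strand: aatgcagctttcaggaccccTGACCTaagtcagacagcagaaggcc
Between Model and Ctrl, Acadm, Acadvl and Echs1 fell (log2 fold changes -0.51, -0.60 and -0.59), while Cpt1a and Plin2 did not pass the test (-0.40 and 0.27). Plin2 alone of these had a value above 0, and no gene with the core motif rose past the test.

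Expressed per transcript length, the 29 genes spanned a wide range in untreated tissue. By FPKM (reads scaled to transcript length and library size) the highest in Ctrl were Hadh at 191 ± 13.1 FPKM, Etfb at 166 ± 14.0 and Acads at 143 ± 9.11 (SD, n = 3). Acads acts on short chains, the length class of butyrate, and Hadh on short and medium ones. The Ctrl mice of Hadh and Etfb overlapped, and those of Etfb and Acads did not. Of the 50-base stretches of Etfb, 67.3% also occur in the gene model Gm45233, so its place in this order is uncertain. The enzymes of the mitochondrial pathway otherwise lay between 27.0 ± 2.72 FPKM (Decr1) and 121 ± 6.65 FPKM (Etfa). The regulators Ppara at 4.27 ± 0.60 and Ppargc1a at 3.67 ± 0.329 FPKM and the PPAR targets Pdk4 at 3.42 ± 1.01 and Angptl4 at 1.05 ± 0.179 FPKM were at the bottom. Of the 28 pairs of neighbours in this order, 17 overlapped in their Ctrl mice and are not ordered beyond the spread.

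The carnitine shuttle, which carries long chains into mitochondria, had 1 of its 3 genes falling between Model and Ctrl. Cpt2, which takes the chain off carnitine inside the mitochondrion, fell by 0.39 on the log2 scale (adjusted p = 0.0152). Cpt1a, the rate-limiting enzyme of the shuttle, stood at 425, 485 and 426 CPM in Ctrl, 538, 498 and 417 in Ctrl_Swim, 261, 329 and 421 in Model and 442, 373 and 434 in Model_Swim. Model 1 and Model 2 were the lowest mice of the 12, while Model 3 at 421 CPM lay just below the lowest Ctrl mouse at 425 CPM. The log2 fold change of -0.40 ± 0.16 did not pass (adjusted p = 0.0695). Slc25a20, the carnitine carrier, had a log2 fold change of -0.093 ± 0.15 (adjusted p = 0.67), and its Model and Ctrl mice overlapped.

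Of the acyl-CoA dehydrogenases, which take the first step of each round, those for very long (Acadvl), medium (Acadm) and short chains (Acads) fell and the one for long chains (Acadl) did not pass. Acads, whose substrates include butyryl-CoA, stood at 266, 293 and 291 CPM in Ctrl, 328, 275 and 253 in Ctrl_Swim, 136, 144 and 233 in Model and 231, 221 and 238 in Model_Swim. The lowest values were those of Model 1 and Model 2, and Model 3 lay between them and Ctrl, among the Model_Swim mice. Its log2 fold change was -0.73 ± 0.18 (adjusted p = 0.0103). Acadm, which acts on medium chains, stood at 159, 177 and 171 CPM in Ctrl, 197, 170.5 and 155 in Ctrl_Swim, 108, 119.7 and 129 in Model and 131, 138 and 139 in Model_Swim. Every Model mouse lay below every other mouse, and the log2 fold change was -0.51 ± 0.093 (adjusted p = 0.00299). Acadvl fell by 0.60 on the log2 scale (adjusted p = 0.00354), and Acadl had -0.13 ± 0.08 (adjusted p = 0.218).

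All 5 genes of the following steps, the hydratases, hydroxyacyl-CoA dehydrogenases and thiolases, fell. Hadh, the dehydrogenase for short chains, stood at 339.8, 381 and 366 CPM in Ctrl, 436, 379 and 354 in Ctrl_Swim, 211, 202 and 267 in Model and 282, 276 and 288 in Model_Swim. Model and Ctrl did not overlap, and the log2 fold change was -0.68 ± 0.11 (adjusted p = 0.00167). Echs1, the hydratase for short chains, had 157, 165 and 159.5 CPM in Ctrl, 170.0, 139 and 152 in Ctrl_Swim, 103, 104 and 113 in Model and 123, 127 and 125 in Model_Swim. The 3 Model mice were close together and below all 9 others, with a log2 fold change of -0.59 ± 0.072 (adjusted p = 0.000591). Acaa2, the thiolase of the mitochondrial matrix, had 127, 159 and 133 CPM in Ctrl, 192, 158 and 144 in Ctrl_Swim, 68.0, 82.5 and 119 in Model and 122, 110.0 and 119 in Model_Swim, in which Model 3 stood at the level of Model_Swim. It fell by 0.63 on the log2 scale (adjusted p = 0.0217). Hadha and Hadhb were the weakest of the 5 (adjusted p = 0.0356 and 0.0411), and their Model 3 values of 381 and 161 CPM lay just under the lowest Ctrl values of 394 and 163 CPM.

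The 3 auxiliary enzymes for unsaturated chains also fell. Eci1, an isomerase that moves double bonds, stood at 53.0, 56.6 and 52.4 CPM in Ctrl, 65.6, 50.9 and 51.6 in Ctrl_Swim, 30.2, 32.1 and 40.8 in Model and 39.0, 42.1 and 42.7 in Model_Swim. Eci2, an isomerase of mitochondria and peroxisomes, stood at 54.6, 68.5 and 60.2 CPM in Ctrl, 72.2, 61.3 and 64.6 in Ctrl_Swim, 34.2, 38.1 and 43.6 in Model and 43.5, 47.5 and 49.6 in Model_Swim. In both, Model 1 was the lowest mouse of all 12. Their log2 fold changes were -0.65 ± 0.12 (adjusted p = 0.00319) and -0.66 ± 0.11 (adjusted p = 0.00179). Decr1, the dienoyl-CoA reductase, had 77.8, 92.7 and 83.5 CPM in Ctrl, 97.6, 91.5 and 84.4 in Ctrl_Swim, 61.9, 53.9 and 70.7 in Model and 68.1, 70.2 and 70.0 in Model_Swim, and it fell by 0.45 on the log2 scale (adjusted p = 0.00723).

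The electron transfer flavoprotein takes electrons from the acyl-CoA dehydrogenases, and Etfdh passes them to the respiratory chain. Etfa, the α subunit, stood at 184, 198 and 183 CPM in Ctrl, 198, 174 and 177 in Ctrl_Swim, 115, 106 and 145 in Model and 146, 148 and 150.4 in Model_Swim. Etfb, the β subunit, stood at 149, 172 and 158 CPM in Ctrl, 179, 158 and 148 in Ctrl_Swim, 84.0, 84.0 and 127 in Model and 127, 128 and 128 in Model_Swim. In each, Model 3 lay between the other Model mice and Ctrl, and beside the Model_Swim mice. Etfa had a log2 fold change of -0.63 ± 0.10 (adjusted p = 0.00167), Etfb -0.70 ± 0.14 (adjusted p = 0.00487) and Etfdh -0.39 ± 0.085 (adjusted p = 0.00627).

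Both ketone body enzymes of the list fell, and Acat1 had the lowest adjusted p of the 29 genes. Bdh1 (chr16:31422297-31458901), which interconverts acetoacetate and β-hydroxybutyrate, stood at 232, 241 and 232 CPM in Ctrl, 238, 208 and 202 in Ctrl_Swim, 116, 137 and 162 in Model and 182, 176 and 168 in Model_Swim. Model, Model_Swim and the mice without AOM/DSS formed 3 bands without overlap. It fell between Model and Ctrl with a log2 fold change of -0.77 ± 0.11 (adjusted p = 0.000929). Acat1 (chr9:53580522-53610350), the thiolase that joins or splits acetoacetyl-CoA, stood at 216, 225 and 210.0 CPM in Ctrl, 213, 201 and 192 in Ctrl_Swim, 139.6, 126 and 139.5 in Model and 151, 155 and 154 in Model_Swim. Its Model mice, Model 3 included, were alike and below all other mice. Acat1 fell with -0.68 ± 0.062 (adjusted p = 0.00031).

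Among the peroxisomal enzymes, Acaa1a, a thiolase, and Hsd17b4, the bifunctional enzyme of branched chains, fell (log2 fold changes -0.44 ± 0.098 and -0.47 ± 0.13, adjusted p = 0.00696 and 0.0165). Ehhadh, the other bifunctional enzyme and a known PPARα target, did not pass (-0.32 ± 0.18, adjusted p = 0.192), and its Model 3 value of 68.0 CPM was above all Ctrl mice. Of the 50-base stretches of Acaa1a, 34% also occur in Acaa1b, so reads of the pair could be split. Acaa1b itself had 15.3, 13.7 and 14.3 CPM in Ctrl, 23.6, 13.7 and 15.6 in Ctrl_Swim, 1.66, 0.981 and 14.7 in Model and 20.03, 17.8 and 17.2 in Model_Swim, with Model 1 and Model 2 far below the other 10 mice.

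The regulators differed in how far their Model mice lay from each other. Ppara (chr15:85734910-85806851) stood at 41.2, 53.2 and 50.3 CPM in Ctrl, 72.7, 63.1 and 56.5 in Ctrl_Swim, 11.2, 16.2 and 44.5 in Model and 47.6, 45.7 and 40.6 in Model_Swim. Model 1 and Model 2 were the lowest mice of the 12, and Model 3 lay inside the Ctrl range. The log2 fold change of -1.01 ± 0.38, the largest fall in size of the 29 genes, did not pass (adjusted p = 0.0602, 95% interval -1.85 to -0.18). Without Model 3 it was -1.81 (adjusted p = 7.25e-05). Model 3 was the highest Model mouse for Ppara, so the larger fall without it follows from leaving it out and is no separate evidence. Ppargc1a (chr5:51454249-52115853) stood at 42.0, 48.8 and 47.7 CPM in Ctrl, 39.9, 37.3 and 31.0 in Ctrl_Swim, 27.7, 29.2 and 28.3 in Model and 34.6, 35.2 and 29.8 in Model_Swim. Here the 3 Model mice were alike and below all other mice, and Model 3 did not stand apart. It fell with a log2 fold change of -0.70 ± 0.10 (adjusted p = 0.00102).

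The 3 genes grouped here as PPAR targets were the members with log2 fold changes above 0 between Model and Ctrl, and of them only Angptl4 passed. They are not all the PPAR targets of the list, and Ehhadh, named above as another, had a value below 0 (-0.32). Angptl4 (chr17:33774900-33781575), an inhibitor of lipoprotein lipase, stood at 1.77, 2.13 and 2.47 CPM in Ctrl, 4.0, 2.93 and 7.62 in Ctrl_Swim, 3.86, 6.43 and 17.05 in Model and 5.94, 3.86 and 6.68 in Model_Swim. All Model mice were above all Ctrl mice, and Model 3 was the highest of the 12. It rose with a log2 fold change of 2.10 ± 0.53 (adjusted p = 0.0123), which was 1.28 without Model 3 (adjusted p = 0.0308). Angptl4 is also known as a gene of fat cells, and Adipoq, the adipocyte hormone adiponectin, was likewise highest in Model 3, at 0.883, 9.43 and 7.48 CPM in Ctrl, 3.23, 1.65 and 3.99 in Ctrl_Swim, 4.77, 2.07 and 35.9 in Model and 25.0, 7.99 and 17.5 in Model_Swim. In Model 1 and Model 2, Adipoq lay within the wide Ctrl range of 0.883 to 9.43 CPM while Angptl4 lay above its own. The part of fat cells in the Angptl4 values was not tested. The 9 adipocyte markers summed to 521 CPM in Model 3, 139.6 and 111 CPM in Model 1 and Model 2, and 103 to 182 CPM in Ctrl, and 0 of them passed between Model and Ctrl. Plin2, which coats lipid droplets, had a log2 fold change of 0.27 ± 0.10 (adjusted p = 0.0613) with Model above Ctrl in every mouse, and Pdk4, which shuts pyruvate out of the citric acid cycle, had 0.38 ± 0.46 (adjusted p = 0.546). Pdk4 was highest in Model_Swim 1, at 34.7 CPM, a mouse whose adipocyte markers summed to 406 CPM.

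Slc16a1 (chr3:104638664-104658462), the transporter MCT1 for butyrate and lactate, stood at 412, 402 and 411 CPM in Ctrl, 464, 342 and 302 in Ctrl_Swim, 216, 291 and 233 in Model and 338, 318 and 330.2 in Model_Swim. Every Model mouse lay below every other mouse, and Model 3 did not stand apart. Slc16a1 fell with -0.73 ± 0.15 (adjusted p = 0.00454). Within AOM/DSS mice the Model_Swim values lay between those of Model and Ctrl without overlap.

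**Figure D2:**
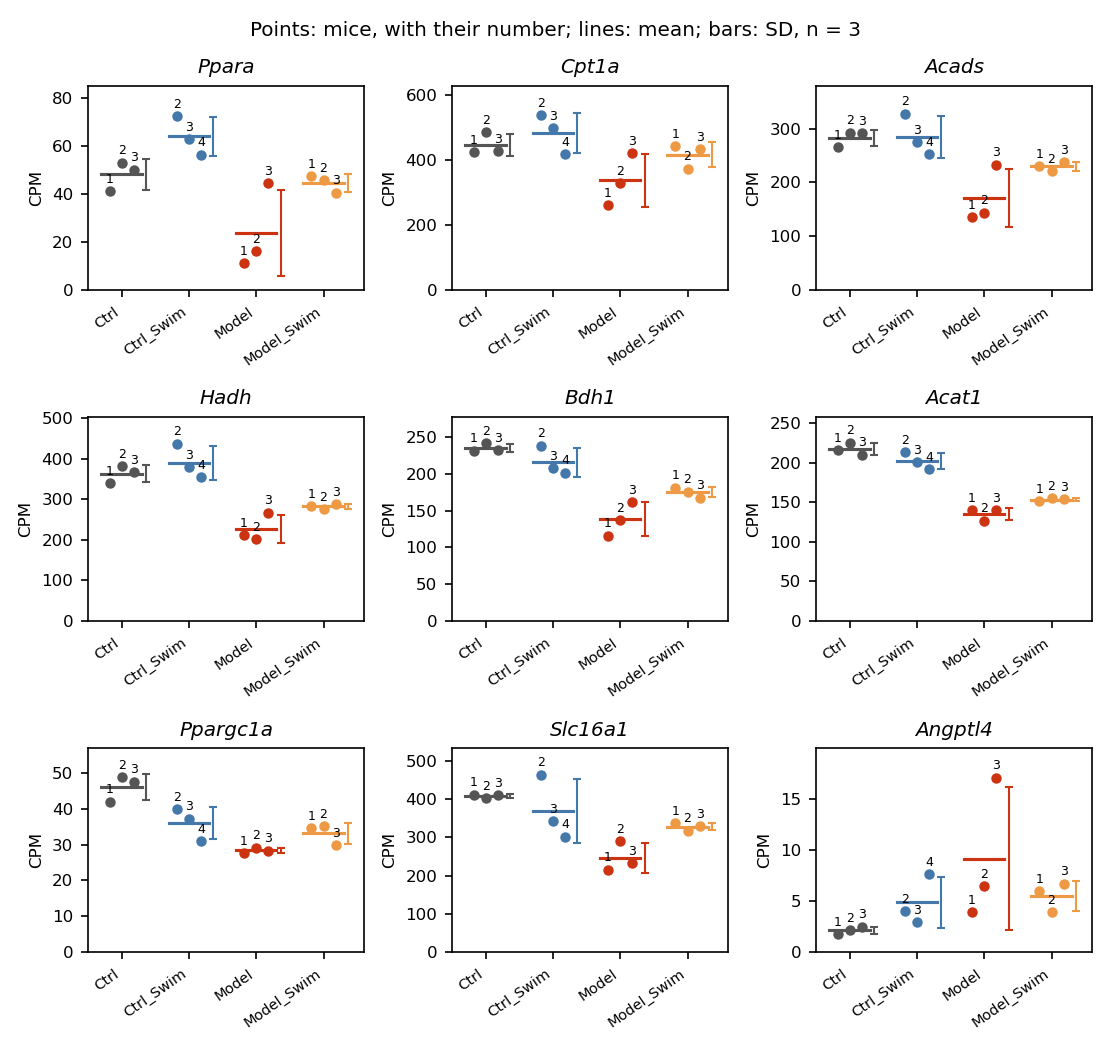
Each panel is 1 gene, with CPM on an axis from 0, a point for each mouse labelled with its number, a line for the mean of the group and a bar for its SD (n = 3). In Ppara, Cpt1a and Acads Model 3 lies far above Model 1 and Model 2 (44.5 against 11.2 and 16.2 CPM in Ppara), whereas in Acat1, Ppargc1a and Slc16a1 all 3 Model mice lie below all other mice.

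In wider lists of the same routes more genes fell than rose between Model and Ctrl, except among transporters and sensors. Oxct1, which activates ketone bodies for use, fell with -0.33 ± 0.10 (adjusted p = 0.0312), a call lost in 16 of 23 alternatives, among them that without Model 3. Of 16 genes of fatty acid uptake and activation 8 fell and 1 rose. Fabp2, the intestinal fatty acid binding protein, stood at 501, 494 and 553 CPM in Ctrl, 610.2, 402 and 428 in Ctrl_Swim, 90.4, 130.3 and 265 in Model and 398, 324 and 354 in Model_Swim, and it fell with -1.67 ± 0.32 (adjusted p = 0.00351). Fabp1 fell by 2.63 on the log2 scale (adjusted p = 0.0475) from between 2 and 88 counts per mouse, and its call was lost in 14 of 23 alternatives, with a change of sign in 1 more. Acsl4, an acyl-CoA synthetase of polyunsaturated chains, rose (0.52 ± 0.15, adjusted p = 0.0227).

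Of 15 other mitochondrial acyl-CoA genes 6 fell and 1 rose. Acad10 and Acot13 fell (-0.64 and -0.58, adjusted p = 0.00257 and 0.00515), and Cpt1c, a brain form of CPT1, rose (0.79, adjusted p = 0.00961). Cpt1b, the muscle form of CPT1, had 0.47 ± 0.27 (adjusted p = 0.2). Of 18 other peroxisomal genes 7 fell and 0 rose, with Pecr and Ech1 at -0.56 and -0.53 (adjusted p = 0.0136 and 0.0163). The citric acid cycle, which takes up the acetyl-CoA, was lower throughout. All 16 of its genes fell, with a median log2 fold change of -0.59, and Suclg2 and Sdhb fell by 0.68 and by 0.67 (adjusted p = 0.00144 and 0.00112).

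Of 8 genes of butyrate transport and sensing 7 were tested, of which 1 fell and 2 rose. Bsg, the chaperone basigin that MCT1 needs at the membrane, fell (-0.42 ± 0.088, adjusted p = 0.00517). Slc16a3, the lactate exporter MCT4, stood at 9.88, 7.52 and 12.3 CPM in Ctrl, 8.44, 5.48 and 7.36 in Ctrl_Swim, 36.7, 18.2 and 15.3 in Model and 16.1, 22.1 and 25.8 in Model_Swim, and it rose with 1.24 ± 0.32 (adjusted p = 0.0146). The monocarboxylate transporters Slc16a1 and Slc16a3 thus moved in opposite directions. Hcar2, a receptor for β-hydroxybutyrate and butyrate that immune cells also carry, rose with 2.42 ± 0.65 (adjusted p = 0.0166), from 1.10, 0.981 and 0.495 CPM in Ctrl to 3.65, 8.28 and 1.95 CPM in Model, and macrophage markers rose in 7 of 7 and neutrophil markers in 4 of 6 genes. Slc5a8, the sodium-coupled butyrate carrier, had -0.12 ± 0.19 (adjusted p = 0.647). Of 12 other regulators 6 fell and 0 rose. Hnf4g, a nuclear receptor of enterocytes, stood at 56.3, 59.9 and 59.6 CPM in Ctrl, 48.7, 47.4 and 50.7 in Ctrl_Swim, 21.2, 26.6 and 34.8 in Model and 43.5, 44.4 and 43.0 in Model_Swim, and it fell with -1.09 ± 0.13 (adjusted p = 0.000591). Rxra, the partner of the PPARs, fell with -0.55 ± 0.096 (adjusted p = 0.0025). Ppard also fell, with -0.53 ± 0.093 (adjusted p = 0.00242), and Pparg had -0.55 ± 0.25 (adjusted p = 0.109).

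Markers of cell types also differed, some between the groups and some between single mice of a group. Of 10 markers of the gut epithelium 7 fell between Model and Ctrl, and their summed level was 13160 to 14956 CPM in Ctrl, 10654 to 13542 in Ctrl_Swim, 10015 to 10580 in Model and 11117 to 11831 in Model_Swim. Krt8 and Krt19 were the most abundant of them. In the 3 Ctrl_Swim mice the sums were 13542, 11497 and 10654 CPM, in the same order as their medians over the 29 genes (0.21, -0.012 and -0.080). The order also matched in Model_Swim but was reversed in Model. There the sums of Model 1, Model 2 and Model 3 were 10580, 10204 and 10015 CPM and the medians -0.68, -0.62 and -0.26. In Ctrl, the mouse with the lowest sum (Ctrl 2, 13160 CPM) had the highest median (0.066). With the mean log2 CPM of the list as a covariate in the fit, 0 of the 29 genes and also 0 of all genes passed between Model and Ctrl. In this fit 5 of the 29 had an unadjusted p under 0.05. The epithelial sums of Model and Ctrl did not overlap, so the fit cannot tell epithelial content and AOM/DSS apart. Of 11 markers of mature colonocytes 3 rose and 3 fell. Their summed level was 18604 to 20322 CPM in Ctrl, 16088 to 20915 in Ctrl_Swim, 11833, 13913 and 17930 in Model 1, Model 2 and Model 3, and 20317 to 20717 in Model_Swim, so that all Model mice lay below all Ctrl and all Model_Swim mice. Car1, one of the most abundant of these markers, stood at 6821, 6385 and 6775 CPM in Ctrl, 9122, 5675 and 6979 in Ctrl_Swim, 410.4, 277 and 4731 in Model and 6034, 6287 and 5932 in Model_Swim, and Model 1 and Model 2 were again far below the rest. Much of the lower sum in Model comes from Car1, and with Car1 taken out the sums of Model and Ctrl overlap.

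Squamous epithelium markers rose in 10 of 12 genes, with a sum of 1015 and 1886 CPM in Model 1 and Model 2, 12.1 in Model 3 and 8.52 to 13.6 in Ctrl. They were also at 877 CPM in Ctrl_Swim 4 and at 985 and 842 CPM in Model_Swim 2 and Model_Swim 3, mice whose medians over the 29 genes were -0.080, -0.29 and -0.25. Acinar markers rose in 15 of 16 genes, fibroblast markers in 6 of 6, B cell markers in 6 of 7 and T cell markers in 5 of the 6 tested, with none of these lists falling in any gene. Of 13 genes of the circadian clock 3 rose and 8 fell, and their sum was 465 to 541 CPM in Model, 727 to 763 in Ctrl and 791 to 859 in Model_Swim. Smooth and skeletal muscle markers passed in 0 genes. The part of these lists in the result was not tested. Without Model 1 and Model 3, the libraries with acinar reads, 25 of the 29 genes passed between Model and Ctrl, 24 of them lower, and 18.1% of all genes fell. In that fit the Model group is a single mouse that is assumed to vary like the others.

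Swimming under AOM/DSS was examined by comparing Model_Swim with Model. These Model mice are the same as those above, so the 2 comparisons are not independent. In this comparison 0 of the 29 genes passed by edgeR and 0 by DESeq2, and 14 and 17 had an unadjusted p under 0.05, against 13.6% of all genes by edgeR. That count of 14 fell to 5 without Model 1, to 3 without Model 2 and to 0 with the epithelial covariate described above, under which the median of the 29 genes was 0.16. Of all genes tested 0.0646% rose and 0.00646% fell. Most of these were genes of the circadian clock, of which 6 of the 13 listed rose and 1 fell. The log2 fold change was above 0 in 28 of the 29 genes, with a median of 0.27 against -0.01 over all genes tested. In 9 of the 29 all Model_Swim mice lay above all Model mice, against 8.32% of all genes. These 9 genes were Acadvl, Acadm, Hadh, Echs1, Etfa, Bdh1, Acat1, Ppargc1a and Slc16a1, and they were named after their values were seen.

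The lowest adjusted p was that of Bdh1, with a log2 fold change of 0.34 ± 0.11 (adjusted p = 0.235, 95% interval 0.10 to 0.58). The largest difference in size was that of Ppara, at 0.90 ± 0.38 (adjusted p = 0.336, 95% interval 0.071 to 1.73). Slc16a1 had 0.41 ± 0.15 (adjusted p = 0.269), Acads 0.43 ± 0.18 (adjusted p = 0.325) and Cpt1a 0.30 ± 0.16 (adjusted p = 0.431). Angptl4 was the gene with a difference below 0, at -0.73 ± 0.50 (adjusted p = 0.555). Of the genes named from the wider lists of the pathway 0 passed.

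How far Model_Swim and Model differed depended on Model 3. Model 1 and Model 2 were both below all 3 Model_Swim mice in 25 of the 29 genes, against 18.9% of all genes tested. Model 3 was below all 3 Model_Swim mice in 10 of the 29 genes, against 31.5% of all genes. Without Model 3, 15 of the 29 genes rose in Model_Swim relative to Model, and in that fit 4.30% of all genes rose. Among them were Ppara (1.72, adjusted p = 0.000218), Acads (0.73, adjusted p = 0.00237), Acaa2 (0.65, adjusted p = 0.0198), Etfb (0.61, adjusted p = 0.00246) and Cpt1a (0.51, adjusted p = 0.0477). Leaving out any other single mouse left 0 genes past the test. Without Model 1 and Model 3 together, 7 rose, as did 2.67% of all genes in that fit. The labels give no ground to leave out Model 3, which carries the same description as the other Model mice. Model 3 stands apart by the values of these same genes. Higher counts without it, here and below, therefore follow in part from that choice and are no separate evidence.

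**Figure D3:**
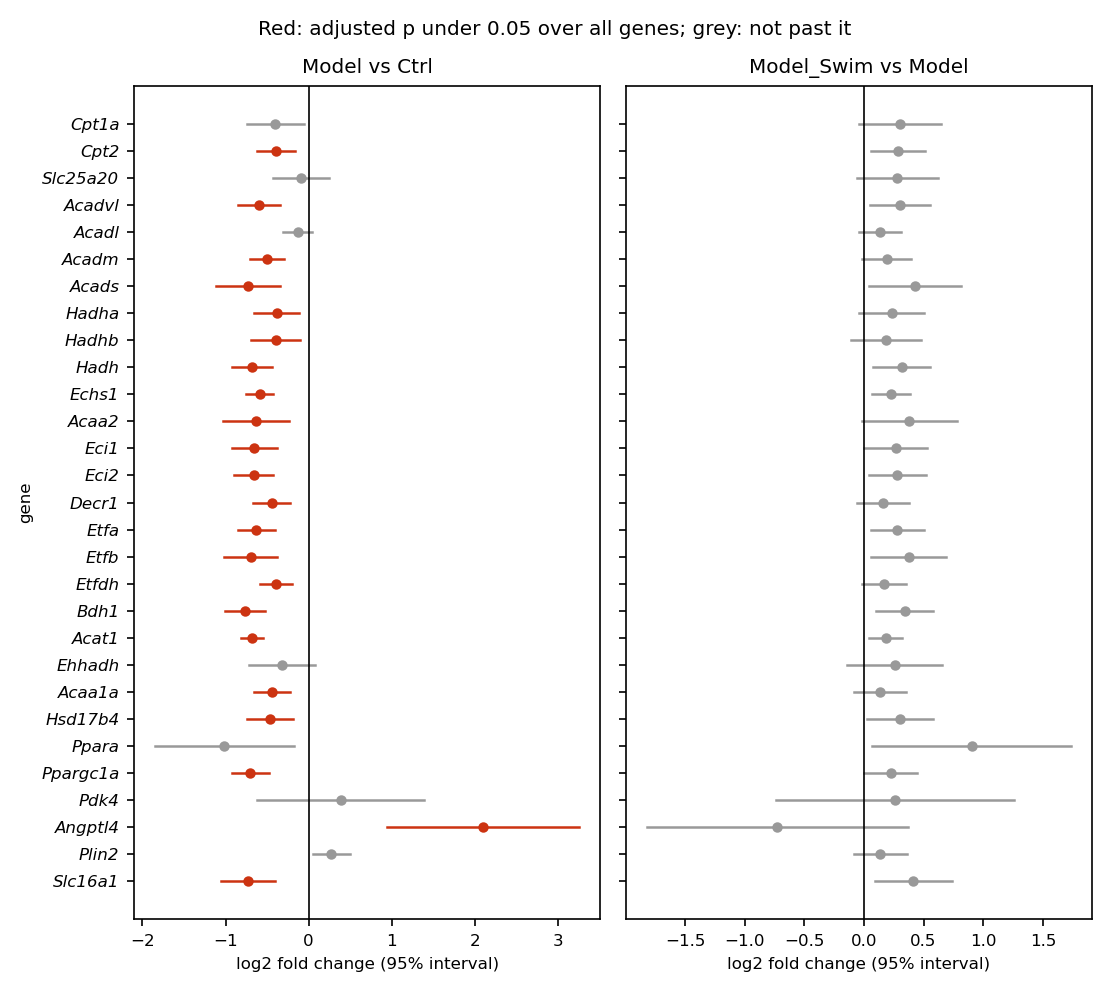
Points are log2 fold changes of the 29 genes and lines their 95% intervals, for Model against Ctrl on the left and Model_Swim against Model on the right, with genes past the adjusted p of 0.05 in red. On the left 21 red intervals lie below 0 and that of Angptl4 above it, and on the right all are grey with 28 of 29 points above 0.

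In mice without AOM/DSS, swimming alone was examined by comparing Ctrl_Swim with Ctrl. Here 0 of the 29 genes passed by edgeR and 0 by DESeq2. By either tool 2 had an unadjusted p under 0.05, against 17.6% of all genes by edgeR. The median log2 fold change was 0.045. It was -0.031 without Ctrl_Swim 2, 0.17 by limma on log2(FPKM + 1) and 0.20 with the epithelial covariate. Of all genes tested 0.801% fell and 0.168% rose. The 2 genes were Ppargc1a, at -0.36 ± 0.10 with all Ctrl_Swim mice below all Ctrl mice (adjusted p = 0.125), and Angptl4, at 1.19 ± 0.52 with all of them above (adjusted p = 0.269). Ppara was also above all Ctrl mice in the Ctrl_Swim mice, with 0.41 ± 0.37 (adjusted p = 0.589). The share of all genes without overlap was not counted for this comparison. In the wider lists Oxct1 fell, at -0.50 ± 0.10 with an adjusted p just under the threshold (0.05), and this call was lost in 16 of 23 alternatives, among them those without any single Ctrl, Ctrl_Swim or Model_Swim mouse. Leaving out any 1 of the 12 mice left 0 of the 29 genes past the test.

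The effect of AOM/DSS among swimming mice was examined by comparing Model_Swim with Ctrl_Swim, in which 6 of the 29 fell and 0 rose, while 1.69% of all genes tested fell and 3.49% rose. In 17 of the 29 all Model_Swim mice lay below all Ctrl_Swim mice, against 16.5% of all genes. The median log2 fold change was -0.28, and 25 of the 29 values were below 0. The 6 genes were Acat1 (-0.40 ± 0.062, adjusted p = 0.00837), Eci2 (-0.49 ± 0.11, adjusted p = 0.0291), Hadh (-0.47 ± 0.11, adjusted p = 0.0367), Echs1 (-0.30 ± 0.072, adjusted p = 0.0398), Decr1 (-0.39 ± 0.099, adjusted p = 0.0456) and Acadm (-0.36 ± 0.093, adjusted p = 0.0494). Without Ctrl_Swim 2, the mouse with high values of most of the 29 genes, 1 of them passed and 0.375% of all genes fell. Without each of the Model_Swim mice 1 passed, and without Ctrl 3, Ctrl_Swim 3 or Ctrl_Swim 4 3 passed. Model 1 and Model 3 enter this comparison only through the filter, the scaling and the shared estimate of the spread. Without Model 1, 10 passed and 3.76% of all genes fell. Without Model 3, 14 passed and 3.59% fell. With the replicate number as a block 0 passed, and 0.0323% of all genes fell.

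Of the wider lists, Slc16a3 rose between Model_Swim and Ctrl_Swim (1.59 ± 0.33, adjusted p = 0.0249), and Ivd, Tfam, Idh3a and Idh3b fell (-0.26, -0.33, -0.35 and -0.34, adjusted p = 0.0296, 0.0398, 0.0258 and 0.0321). Ppara had -0.52 ± 0.37 (adjusted p = 0.444) and Slc16a1 -0.17 ± 0.15 (adjusted p = 0.539).

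Whether swimming altered the response to AOM/DSS was tested as an interaction, that is the difference made by swimming under AOM/DSS minus that made without it. By edgeR the interaction passed in 0 of the 29 genes and in 0% of all genes tested, and its unadjusted p was under 0.05 in 7 of the 29 and in 19% of all genes. The interaction was above 0 in 27 of the 29 genes, with a median of 0.21. This median was 0.099 without Model 1 and 0.085 by limma on log2(FPKM + 1), and it turned to -0.053 with the epithelial covariate. The largest in size was that of Angptl4, at -1.92 ± 0.72 (adjusted p = 0.19), and the lowest adjusted p was that of Ppargc1a, at 0.58 ± 0.14 (adjusted p = 0.115). By DESeq2 3 passed, namely Bdh1, Acat1 and Ppargc1a, while 2.24% of all genes passed as higher and 1.96% as lower. Without Model 3, 5 passed by edgeR (Acads, Etfa, Etfb, Bdh1 and Ppara), while 3.34% of all genes passed as higher and 1.22% as lower.

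**Figure D4:**
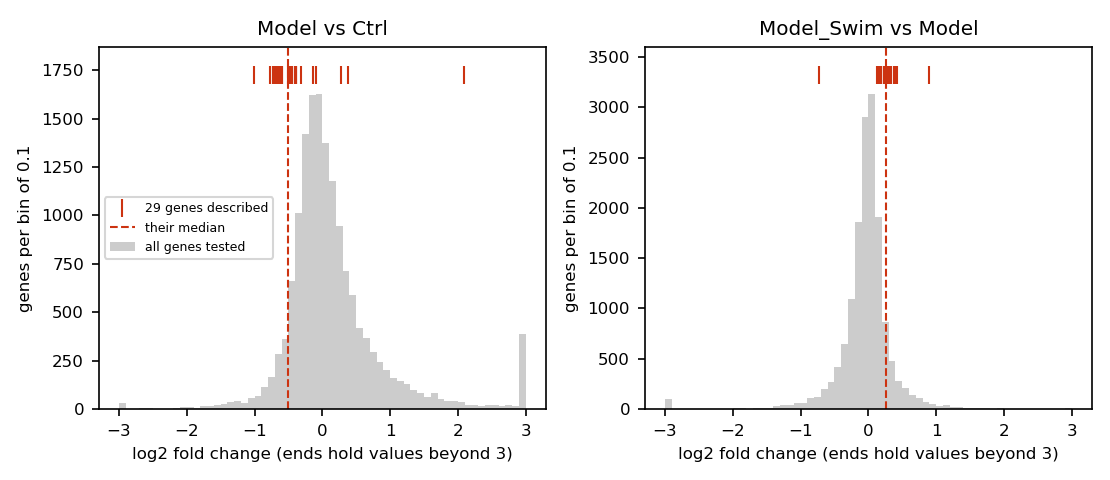
Grey bars count all 15484 genes tested by log2 fold change in bins of 0.1, red ticks mark the 29 genes and the dashed line their median, for Model against Ctrl on the left and Model_Swim against Model on the right. The ticks lie mostly left of the peak on the left (median -0.51) and right of it on the right (median 0.27), with Angptl4 at 2.10 and -0.73 on the opposite side.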

How the data were processed

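Colorectal tissue of 12 mice was sequenced with the TruSeq Stranded mRNA kit, 1 library per mouse. The authors used Trimmomatic for trimming, HISAT2 for alignment (genome build GRCm38.p6) and HTSeq-count for counting. They deposited the raw counts per gene and the FPKM values from Cufflinks for 18514 genes listed by symbol, and tool versions are not given in the sources used here. Within a gene the deposited FPKM was proportional to the count per library total in all of the 13072 genes checked (coefficient of variation under 1%). Where genes share sequence, the setting for reads with several matches is not given either.

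The analysis of the counts used edgeR 4.0.16 under R 4.3.3. TMM factors scaled the libraries, filterByExpr (minimum count 10) left 15484 genes, and 1 quasi-likelihood fit of the 4 groups over all 12 mice was tested, with Benjamini-Hochberg adjustment over all genes tested. Total counts of 17256953 to 19451055 put 3 counts at 0.154 to 0.174 CPM, which covers counting error only. Groups came from the labels. The code was tested on simulated data with known fold changes.

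The 29 genes, the wider lists, the marker lists and the tests were chosen with earlier results of these data known. All 29 genes are named. From the wider lists those named are up to 2 genes per direction with the largest change past the threshold, and Slc5a8, Ppard, Pparg and Cpt1b in any case. Some genes of the wider lists are not reported here. Acaa1b, Adipoq and Car1 were named after their values were seen. Of the 29 genes, values of every mouse are given for the 12 largest changes past the threshold in Model against Ctrl, for all called in the other comparisons, and for Cpt1a and Ppara. The alternatives were DESeq2 1.42.0 and its size factors, no filter, a block for the replicate number, fits of the compared groups alone, limma 3.58.1 on log2(FPKM + 1) and on log2(FPKM + 0.1), acinar genes left out of the scaling, fits without the libraries with acinar reads, an epithelial covariate, and 12 fits that each left out 1 mouse.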

Additional observations from a re-analysis of the deposited data

How the results depend on the processing

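Between Model and Ctrl, 22 of the 29 genes passed, and 17 of these passed in every alternative run apart from the epithelial covariate (0 genes) and the added fold cutoff (1 gene). The other fits gave 19 to 25, and those that left out 1 mouse gave 17 (without Ctrl 2) to 27 (without Model 3). No gene of the 29 that had passed changed sign. The call of Hadhb was lost in 15 and that of Hadha in 10 of the 23 alternatives run for each gene. Between Model_Swim and Model the count of 0 became 7 without Model 1 and Model 3, and was 0 to 15 with 1 mouse left out. Between Ctrl_Swim and Ctrl it was 0 to 0. Between Model_Swim and Ctrl_Swim the count of 6, where 1.69% of all genes fell, became 0 with the fold cutoff. It was 10 by DESeq2 (3.11% of all genes fell) and 10 with only the groups compared (2.88%). With 1 mouse left out it was 1 to 14. Without Model 1 and Model 3 the median log2 fold change was -0.29, against -0.28 in the main fit. For the interaction the count of 0 became 3 by DESeq2 (2.24% of all genes passed as higher), and was 0 to 5 with 1 mouse left out. Without Model 1 and Model 3 its median was 0.33, against 0.21 in the main fit. The fits that left out Model mice have fewer mice in that group, and the cause of the changes in count was not tested. Under the epithelial covariate the log2 fold change between Model and Ctrl turned to 1.14 for Fabp1 and to -0.040 for Acsl4. By limma on log2(FPKM + 1) 1516 genes fell and 3003 rose between Model and Ctrl, against 2504 and 2562 by edgeR, and 22 of the 29 genes passed there. On log2(FPKM + 0.1) the median of all genes moved to 0.11 between Ctrl_Swim and Ctrl.

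The labels do not say whether mice with the same replicate number are paired. Over 15 pairs of the same number in different groups, the deviations from the group means correlated between -0.26 and 0.56, with 4 over 0.1. The 39 pairs of different numbers lay between -0.56 and 0.45. These ranges overlap, so they do not decide whether the numbers pair the mice. Taking the number as a block gave 21 of the 29 genes for Model against Ctrl and 0 in each of the other comparisons, Model_Swim against Ctrl_Swim included.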
